A study of Mus musculus with 8 samples.

Results

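The atypical chemokine receptors Ackr1, Ackr2, Ackr3 and Ackr4 were followed through tumor blood and lymphatic endothelium as the 4 rows of those names among the 28692 genes of a single-cell count matrix. Fragments of MT-ret melanoma, a transplanted mouse melanoma, had been implanted in 10 C57BL/6N mice, on the ventral flank, so all cells came from tumor-bearing animals of 1 strain; no untreated or tumor-free group was analysed here. Endothelial cells of the blood vessels (BEC) and of the lymphatics (LEC) of the tumors were separated by fluorescence-activated sorting and sequenced with a droplet method that reads the 3′ end of each transcript and gives each captured molecule a unique molecular identifier (UMI). The labels list 4 libraries for each sort, but the cells carry no library name, so each sort was 1 sample and no test between sorts was possible. Levels are CPM, the summed counts of a gene as parts of 1000000 of all counts of the same cells, differences are ratios of CPM, and the values in parentheses are exact 95% intervals that cover counting error only.

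Chemokine receptors of the classical kind couple to G proteins and guide migrating leukocytes, whereas the atypical receptors bind chemokines without that coupling, carry them into endosomes and so remove, move or present them. Ackr1, also called Duffy antigen or DARC, binds many inflammatory CC and CXC chemokines and is known from the venules, where leukocytes leave the blood, and from red cells. Ackr2, also called D6, takes up and degrades inflammatory CC chemokines and is known from the lymphatic endothelium of the skin. Ackr3, formerly Cxcr7, binds Cxcl12 and Cxcl11 and has been described as a scavenger of adrenomedullin, and Ackr4, also called Ccrl1, binds the homeostatic chemokines Ccl19, Ccl21 and Ccl25.

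In mouse build GRCm38 (mm10) Ackr1 and Ackr3 lie on chromosome 1 and Ackr2 and Ackr4 on chromosome 9, all as protein-coding genes of the GENCODE annotation. Ackr1 is at chr1:173331886-173333750 on the minus strand, Ackr3 at chr1:90203980-90216751 on the plus strand, Ackr2 at chr9:121898355-121911074 on the plus strand and Ackr4 at chr9:104084157-104126933 on the minus strand. The windows from 250 bases before to 50 bases after the start given by RefSeq are shown for the 3 receptors whose levels differed between the sorts, since they let the gene that led in BEC be read beside those that led in LEC. Each is written 5′ to 3′ on the strand of its gene, and capitals mark the matches found on either strand to 8 short motifs (TATAAA for the TATA box, AGATAA for GATA factors, TGANTCA for AP-1, CCGGAA for ETS factors, ACGTG for the hypoxia element, GGGNNTTCC for NF-kB, TGTTTA for Fox factors and GGGCGG for Sp factors, with N any base). The windows are chr1:173333454-173333753, minus strand, for Ackr1, chr9:121898105-121898404, plus strand, for Ackr2 and chr1:90203730-90204029, plus strand, for Ackr3.
Ackr1: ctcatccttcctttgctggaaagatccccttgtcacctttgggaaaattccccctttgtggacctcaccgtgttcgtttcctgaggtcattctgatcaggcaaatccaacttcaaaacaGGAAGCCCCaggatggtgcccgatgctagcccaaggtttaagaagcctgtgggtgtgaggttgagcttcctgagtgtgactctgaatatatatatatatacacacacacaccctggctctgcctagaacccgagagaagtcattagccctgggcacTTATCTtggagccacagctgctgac
Ackr2: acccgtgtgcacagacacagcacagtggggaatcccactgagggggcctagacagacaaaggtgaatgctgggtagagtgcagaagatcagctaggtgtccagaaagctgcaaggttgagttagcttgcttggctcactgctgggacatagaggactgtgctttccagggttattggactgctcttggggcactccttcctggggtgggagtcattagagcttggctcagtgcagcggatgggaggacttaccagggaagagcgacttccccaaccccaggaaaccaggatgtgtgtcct
Ackr3: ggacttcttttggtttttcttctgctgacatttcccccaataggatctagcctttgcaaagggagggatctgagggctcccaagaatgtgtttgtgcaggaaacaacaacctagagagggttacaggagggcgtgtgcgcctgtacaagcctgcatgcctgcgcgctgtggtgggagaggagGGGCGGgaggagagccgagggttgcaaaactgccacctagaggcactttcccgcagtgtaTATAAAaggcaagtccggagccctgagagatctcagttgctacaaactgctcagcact
The Ackr1 window held a GATA match, in reverse as TTATCT at base 276, and an NF-kB match, in reverse as GGAAGCCCC at base 120. AGATAA was found in 11.2% of 32851 promoter windows of the same length and GGGNNTTCC in 5.82%. The Ackr3 window held TATAAA at base 243, a motif present in 13.6% of the windows, and GGGCGG, the Sp motif, at base 183, present in 35.7%. The Ackr2 window held none of the 8 motifs. CpG pairs numbered 4 in Ackr1, 3 in Ackr2 and 8 in Ackr3, against a median of 7 over the windows, and GC content was 50%, 55.7% and 54.0%, against a median of 52.7%. A match is a string of letters and was not tied to binding or to the levels that follow.

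The BEC sort held 3228 cells with 71304111 counts and a median of 19416 counts per cell, and the LEC sort 4407 cells with 59273049 counts and a median of 11000. Of the BEC sort 97.8% passed a gate on BEC markers (Flt1, Cd93, Plvap and 6 others), and of the LEC sort 87.2% passed a gate on LEC markers (Prox1, Lyve1, Flt4 and 5 others). The LEC sort also held 163 BEC-gated cells (3.70%) and 244 cells with markers of a non-endothelial type, 225 of them melanocytic, and the BEC sort held 17 LEC-gated and 53 non-endothelial cells. Summed over the sort, the BEC marker list reached 25132 CPM in BEC against 2741 in LEC, the LEC list 174 against 24971 CPM, and the pan-endothelial list 4240 against 4209 CPM. The same barcode occurred in both sorts 34 times. Shares of cells are given after each cell was thinned to 5000 counts, because cells of the BEC sort were more deeply sequenced.

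The counts themselves had a step at 4. In scarce genes, those with 10 to 99 counts in a sort, positive cells held 1, 2, 3 or 4 counts in 44.1%, 23.03%, 20.1% and 10.4% of cases in BEC, but 5 counts in only 0.784%. In LEC these shares were 36.4%, 23.5%, 22.7% and 15.4%, and 0.630% at 5 counts. Ackr2 in LEC had 3 counts as its most frequent value, in 24.7% of its positive cells, and 5 or more in 22.9%. Values of that kind are not those of independently counted molecules; the origin of the step was not tested. It falls at the number of libraries that the labels list for a sort; whether 1 molecule was counted in several of them was not tested, and a count is therefore not taken as 1 molecule. Every interval of a level or ratio was accordingly widened by the dispersion of the scarce genes, 1.78 times in BEC and 1.83 times in LEC. This can be too little for genes with larger counts per cell, most of all Ackr1. In BEC 82.0% of the Ackr1 counts lay in 126 cells, so the intervals given for Ackr1 are too narrow.

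**Figure D1:**
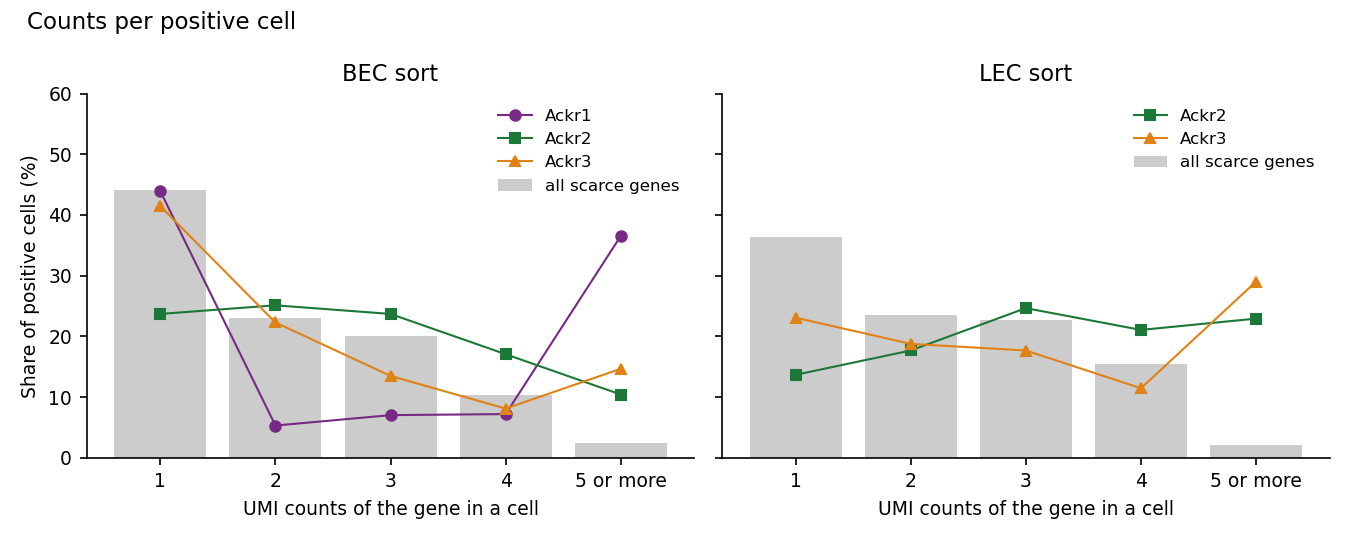
Share of positive cells (%) by the number of UMI counts of the gene in the cell, for all scarce genes (grey bars, 2955 genes in BEC and 3026 in LEC) and for Ackr1, Ackr2 and Ackr3 (lines). The bars drop from 10.4% and 15.4% at 4 counts to 2.43% and 2.11% at 5 or more, while Ackr1 in BEC has its cells at 1 count (43.9%) or at 5 or more (36.5%).

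Ackr1 was higher in the blood endothelium, Ackr2 and Ackr3 were higher in the lymphatic endothelium, and Ackr4 was below 1 CPM in both. Among the 8307 genes that reached 10 CPM in either sort, 11.7% stood 2-fold or more toward LEC and 8.76% as far toward BEC, with a median log2 ratio of LEC over BEC of 0.10. Of the 3 members that reached that minimum, all were past 2-fold, 1 toward BEC and 2 toward LEC. Ackr1, at 5.58 CPM in LEC, and Ackr2, at 8.33 CPM in BEC, reached it only in the sort where they were higher. The minimum itself therefore favoured a difference. Scaling by median-of-ratios size factors, which shifted log2 ratios by -0.18 before the pseudocount, changed the split of genes past 2-fold from 968 toward LEC and 728 toward BEC to 801 and 922, and the 3 members stayed past 2-fold in the same direction. Without the cells whose barcode occurred in both sorts the log2 ratios of LEC over BEC were -4.21 for Ackr1, 3.26 for Ackr2 and 1.65 for Ackr3, against -4.23, 3.28 and 1.66 with them.

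Ackr1 had 8752 counts in the BEC sort, or 123 CPM (118 to 127), and 331 counts in the LEC sort, or 5.58 CPM (4.54 to 6.80). Its level was 21.98-fold higher in BEC (18.0 to 27.1), the 24th largest difference toward BEC among the 8307 genes. Of the 331 LEC-sort counts 311 (94.0%) lay in 5 of the 163 BEC-gated cells, which held 8, 25, 50, 93 and 135 counts. The cell with 135 counts alone held 40.8% of them. Without the highest cell of each sort the log2 ratio of LEC over BEC moved from -4.23 to -4.80. The widened interval of -4.76 to -4.17 belongs to the ratio without a pseudocount. Both log2 ratios carry a pseudocount of 1 CPM, so they cannot be placed in it exactly. In LEC-gated cells of the LEC sort Ackr1 came to 17 counts in 9 of 3843 cells, 0.359 CPM, against 126 CPM in BEC-gated cells of the BEC sort.

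**Figure D2:**
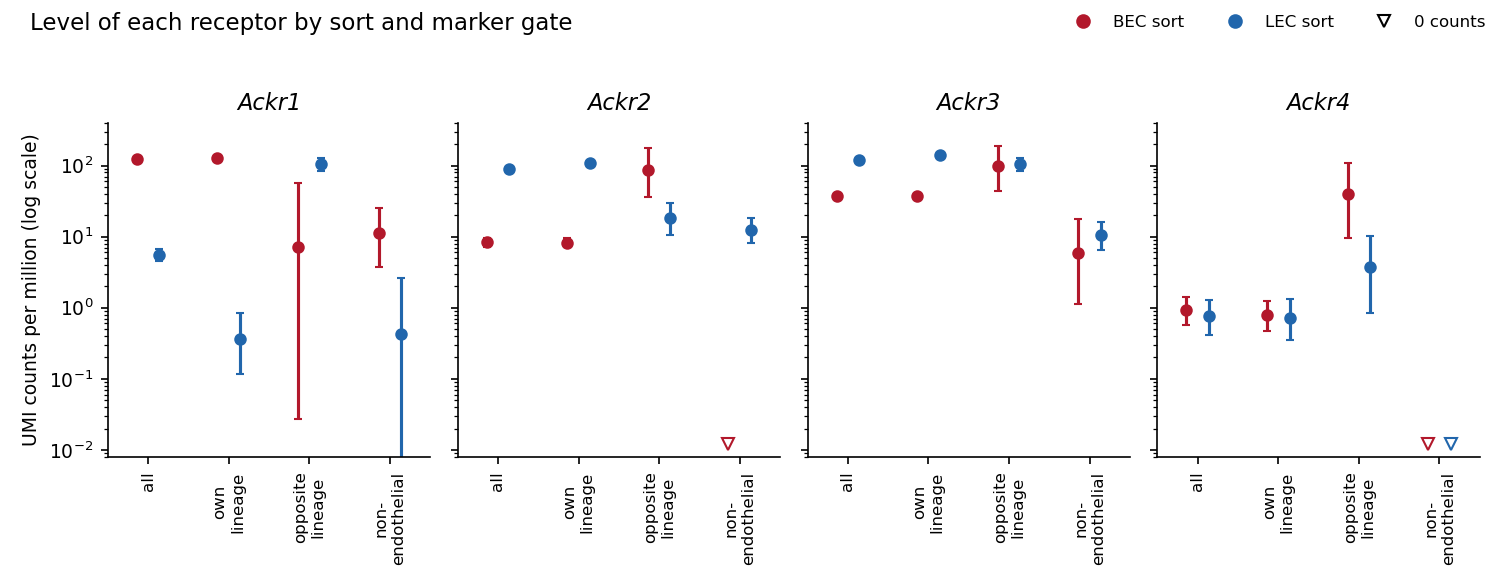
Level of each receptor in CPM (log scale) in the BEC sort (red) and LEC sort (blue), over all cells, cells with the markers of the sorted lineage, cells with those of the opposite lineage and cells with non-endothelial markers; bars are widened 95% counting intervals, some of which run below the axis, and open triangles stand for 0 counts. Ackr1 falls to 0.359 CPM in LEC-gated cells but is at 105 CPM in the BEC-gated cells of the LEC sort, whereas Ackr2 and Ackr3 are at 87.0 and 97.8 CPM in the 17 LEC-gated cells of the BEC sort.

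Within the blood endothelium Ackr1 was concentrated in cells with venous markers. Subsets were taken as gates on marker scores, with cells below the cut left ungated; a gate is a range of a score and not a cell type, and 1012 of the 3156 BEC-gated cells and 1312 of the 3843 LEC-gated cells lay near a cut. The venous gate (Selp, Sele, Vwf, Nr2f2, Il1r1 and Ephb4) held 368 cells, 11.7% of the BEC-gated cells, and 78.4% of their Ackr1 counts. Its Ackr1 level was 933 CPM (894 to 973), against 50.5 CPM in the arterial gate, 41.8 in ungated cells, 35.7 in the Aplnr gate, 35.1 in the cycling gate, 17.4 in the Apln gate and 8.05 in the Npr3 gate. By these intervals, which are too narrow for Ackr1, the levels from the arterial to the cycling gate overlapped between neighbours. The venous, Apln and Npr3 levels each stood clear of their neighbours by the same intervals.

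Against the rest of the BEC-gated cells the venous gate was 30.7-fold higher in Ackr1 (28.01 to 33.7), the largest ratio among the 7750 genes compared, of which 4.23% were at least 2-fold higher. The gate markers had been picked in part from the leading genes of clusters in these same cells, one of which Ackr1 also led, so the ratio is a description and not independent evidence. In clusters drawn without the 4 receptors the cluster leading in Ackr1, of 391 cells, had a log2 ratio of 6.42 over the rest, against 4.94 for the gate. That cluster was not matched to the venous gate. The venous gate also held more counts of mural markers, 299 CPM for the summed list with 5 of 6 genes detected and Cspg4 at 0, against 30.8 to 148 CPM in the other gates. Tagln accounted for 247 of the 299 CPM, against 30.5 CPM in the rest. Rgs5 was at 34.5 against 12.8 CPM, Pdgfrb at 0.818 against 0.434 CPM, Notch3 at 0.682 against 0.306 CPM and Acta2 at 16.8 against 25.5 CPM. Platelet markers were at 38.8 CPM there and 17.2 to 35.4 CPM elsewhere; the part of these other cells in the Ackr1 level was not tested.

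The markers were also read singly. Cells with a count of P-selectin (Selp), which tethers leukocytes to activated venules, had Ackr1 at 634 CPM and cells without at 29.3 CPM, a 21.6-fold difference (19.7 to 23.8). E-selectin (Sele) cells stood at 1254 against 97.5 CPM, von Willebrand factor (Vwf) cells at 471 against 36.6 CPM, and cells with the venous transcription factor Nr2f2 at 515 against 86.0 CPM. Ephb4, the venous ephrin receptor, separated Ackr1 least among the venous markers, with 238 against 110 CPM. Of the markers assigned to the arterial gate, Gja5, Gja4, Sema3g, Hey1 and Efnb2 went with low Ackr1, Sema3g most, at 4.69 against 133 CPM. But Fbln5, an elastic fibre protein, went with high Ackr1, 584 against 24.8 CPM. So did Bmx, found in 34 cells, with 432 against 123 CPM. Cells with Npr3 were at 8.21 CPM and cells without at 137 CPM.

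The distribution over cells had a long upper part. Of the 583 BEC-sort cells with Ackr1, 256 had 1 count and 126 had at least 20, and those 126 cells held 82.0% of all Ackr1 counts, up to 251 in 1 cell. Of the 126 cells 81.0% were in the venous gate, against 8.78% of the other BEC-gated cells. Outside the venous gate, cells with exactly 1 count made up 52.9% (Aplnr gate) to 73.9% (Npr3 gate) of the positive cells, and in the venous gate 8%. After thinning, 48.6% of venous-gated cells had a count and 4.17% to 8.72% of cells of the other gates. The non-endothelial cells of the BEC sort had a thinned share of 5.66% (1.18 to 15.7%) at a median depth of 22945 counts. The shares outside the venous gate lay within that interval, which rests on 3 cells. These non-endothelial cells held a median of 5 of the 9 BEC markers, and doublets were not called. They may therefore not lack the gene and are an uncertain background. The highest of them held 13 of their 17 Ackr1 counts. By level those non-endothelial cells were at 11.1 CPM (3.79 to 25.4), below the arterial, ungated, Aplnr and cycling gates, and each of those 4 gates held 4 to 9 cells with at least 20 counts. Markers of red cells and leukocytes were not raised in the 126 high cells. The erythroid list was at 2.91 against 5.48 CPM and the leukocyte list at 0.364 against 8.77 CPM in the other cells. Mural markers of the 126 cells were at 448 against 79.8 CPM, with 4 of 6 genes detected. Their platelet markers were at 45.5 against 24.9 CPM, with only 2 of 6 genes detected.

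**Figure D3:**
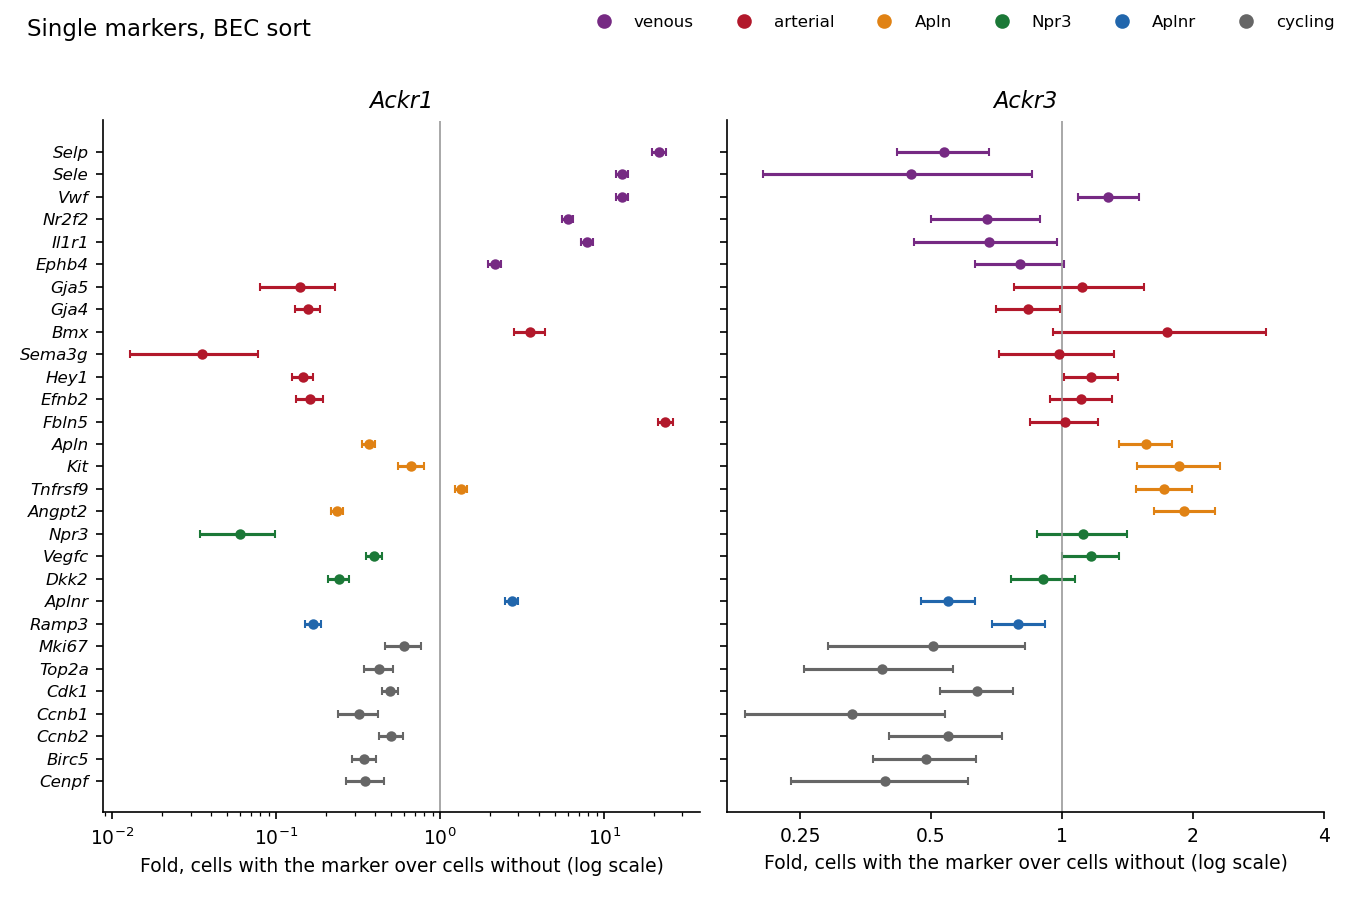
Fold of Ackr1 (left) and Ackr3 (right) in BEC-gated cells with a count of the named marker over cells without it (log scale), with widened 95% counting intervals; colours give the gate to which a marker belongs. Selp and Fbln5 have the highest Ackr1 folds, 21.6 and 23.6, and the Apln-gate markers Apln, Kit, Tnfrsf9 and Angpt2 lie above 1 for Ackr3.

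Cadm3, a cell adhesion gene on the same strand, overlaps the 5′ side of Ackr1 by 493 bases, so the position of a read there does not tell the genes apart. Cadm3 had 405 counts in 121 BEC cells and 2 counts in LEC, and 210 of the 405 lay in the 126 cells rich in Ackr1. Its level was 37.9 CPM in the venous gate and 1.93 CPM in the remaining BEC-gated cells. Its values are therefore uncertain, and its likeness to Ackr1 below carries no weight of its own.

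Ackr2 had 5315 counts in the LEC sort, or 89.7 CPM (85.3 to 94.2), and 594 counts in the BEC sort, or 8.33 CPM (7.18 to 9.62). Its level was 10.8-fold higher in LEC (9.23 to 12.6), in the 211th place toward LEC. After thinning, 25.03% of LEC cells and 2.73% of BEC cells had a count, against 32.9% and 6.54% without thinning. Restricted to the gated lineages, the lymphatic level was 108 CPM and the blood vascular level 8.20 CPM. The 17 LEC-gated cells of the BEC sort held 24 of its counts and stood at 87.0 CPM, and the 163 BEC-gated cells of the LEC sort at 18.2 CPM. Non-endothelial cells of the LEC sort had a thinned share of 4.10% (1.98 to 7.41%) at a median depth of 29161 counts, below the 27.8% of LEC-gated cells at a median of 10531. In the BEC sort the 53 non-endothelial cells held 0 counts. By the limit of 3 for a count of 0 this allows a share of up to 5.66% (exact upper limit 6.72%). The 2.66% of BEC-gated cells could therefore not be set apart from background at this depth. With a median of 5 BEC markers, those 53 cells are themselves an uncertain background.

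Ackr2 was found in every gate of the lymphatic endothelium, at unequal levels. Its level was 151 CPM (128 to 178) in the Cd74 gate, a gate on antigen presentation genes and Vcam1, 134 CPM in the Npy gate, 119 in the Tppp3 gate, 111 in ungated cells, 93.4 in the Lsr gate, 85.3 in the Cd24a gate and 75.5 in the cycling gate. Each level overlapped the next in this order, while the highest and the lowest did not overlap. The Cd74 gate was 1.45-fold above the remaining LEC-gated cells (1.22 to 1.71), short of the 2-fold bound that 2.1% of 8005 genes passed there. Thinned shares ran from 22.7% in the Cd24a gate to 34.1% in the Cd74 gate. In clusters drawn without the 4 receptors the cluster leading in Ackr2, of 140 cells, stood at a log2 ratio of 1.08, past 2-fold, against 0.53 for the Cd74 gate. That cluster was not matched to a gate, so it is not a second reading of the Cd74 gate. The order at the top depended on the markers, since without Cd74 among the markers the Npy gate led, at a log2 ratio of 0.34. Fibroblast markers were at 641 CPM in the Cd74 gate and 64.4 to 306 CPM in the other gates, 640 of them from Dcn, with Col1a1, Col3a1, Pdgfra and Dpt at 0. Mural markers were also highest there, at 63.4 CPM against 13.1 to 38.9 CPM in the other gates, from Acta2, Tagln and Cspg4, with Rgs5, Pdgfrb and Notch3 at 0; their part in the Ackr2 level was not tested.

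By single markers, Ackr2 was at 182 CPM in LEC-gated cells with a count of the class II gene H2-Aa and 106 CPM in cells without, and at 162 against 104 CPM with Ndufa4l2, a mitochondrial subunit that rises in low oxygen. Cells with Vcam1, an adhesion molecule for leukocytes, went the other way, at 77.7 against 109 CPM, and so did cells with Cd24a (82.9 against 121 CPM) and with the valve and collecting vessel gene Foxp2 (74.1 against 112 CPM). In the blood endothelium Ackr2 was highest in the Aplnr gate, at 14.03 CPM, and 2.07-fold above the rest (1.5 to 2.85), where 0.347% of 7503 genes were at least 2-fold higher. There Ramp3, a partner of the adrenomedullin receptor, and not Aplnr itself went with it, with 13.4 against 3.71 CPM for Ramp3 and 7.36 against 9.30 CPM for Aplnr. The venous gate, in which Ackr1 was highest, had the lowest Ackr2 level of the 7, at 3.68 CPM (1.64 to 7.12). It rested on 27 counts in 11 cells. From the Aplnr gate (10.7 to 18.0) down to the venous gate each level overlapped the next, while the highest and the lowest did not overlap. The share of BEC-gated cells with Ackr2 had itself not been set apart from background.

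Ackr3 was found in both endothelia. It had 2650 counts in the BEC sort, or 37.2 CPM (34.7 to 39.8), and 7065 counts in the LEC sort, or 119 CPM (114 to 124), a 3.21-fold higher level in LEC (2.96 to 3.48) and the 564th place toward LEC. Thinned shares were 13.7% of BEC cells and 30.5% of LEC cells, against 31.7% and 41.6% without thinning. In the gated lineages the levels were 37.6 and 139 CPM. Non-endothelial cells had thinned shares of 3.77% in the BEC sort (0.460 to 12.98%) and 2.46% in the LEC sort (0.908 to 5.28%). The 163 BEC-gated cells of the LEC sort had Ackr3 at 104 CPM, above the 37.6 CPM of BEC-gated cells in the BEC sort. But those 163 cells held a median of 2 of the 8 LEC markers, and 40 of them held 3. Doublets were not called, so the 163 cells may not be blood endothelium alone.

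In the blood endothelium Ackr3 was highest in the Apln gate, which is made of Apln, Kit, Tnfrsf9 and Angpt2, genes known from sprouting tip cells. The gate had 86.4 CPM (77.3 to 96.3), without overlap with the arterial gate, the next, at 37.5 CPM. The Npr3 gate followed at 34.5, ungated cells at 32.8, the venous gate at 26.7, the Aplnr gate at 19.6 and the cycling gate at 12.5 CPM. From the arterial gate on, each level overlapped the next. The Apln gate held 16.1% of the BEC-gated cells and 40.02% of their Ackr3 counts. It was 3.16-fold above the rest (2.74 to 3.64), in the 44th place of 7532 genes, of which 1.74% were at least 2-fold higher. The thinned share was 28.4% there and 4.59% to 14.4% in the other gates. Mural markers were at 48.7 CPM in this gate and leukocyte markers at 21.5 against 5.68 CPM in the rest. Coro1a gave 20.2 of the 21.5 CPM, Laptm5 and Tyrobp were at 1.16 and 0.165 CPM, against 1.39 and 0.383 CPM in the rest, and Ptprc and Cd52 were at 0; their part in the Ackr3 level was not tested.

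In the lymphatic endothelium Ackr3 was highest in the Tppp3 gate, at 236 CPM (216 to 256), and next in the Lsr gate, at 181 CPM (162 to 201), with no overlap between them or with the Npy gate at 135 CPM. The Cd74 gate followed at 133 CPM, ungated cells at 109, the Cd24a gate at 91.8 and the cycling gate at 81.0 CPM, each overlapping the next. The Tppp3 gate was 1.97-fold above the rest (1.78 to 2.17), in the 87th place of 7931 genes, of which 1.1% were at least 2-fold higher, so its ratio lay just under that bound. Its thinned share was 47.6%, against 22.9% to 39.8% in the other gates. Among the markers that went with higher Ackr3, Igfbp5, an IGF binding protein, and Lsr, a junction protein, gave the largest folds, with 202 against 102 CPM and 240 against 134 CPM in cells with and without a count. Without Igfbp5 among the markers the log2 ratio of the Tppp3 gate fell from 0.98 to 0.73. In both endothelia the cycling gate had the lowest Ackr3 level, overlapping the next gate above it, Aplnr in BEC and Cd24a in LEC.

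**Figure D4:**
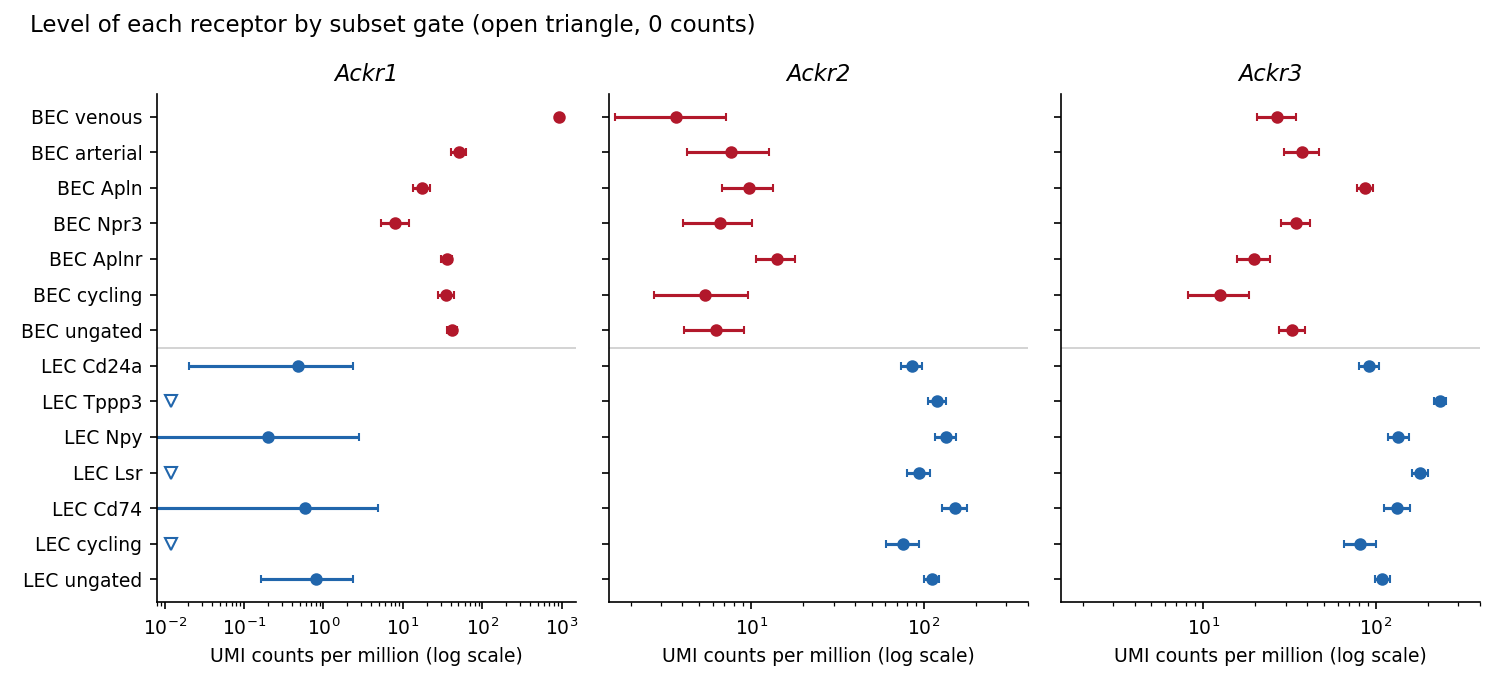
Level of Ackr1, Ackr2 and Ackr3 in CPM (log scale) in each subset gate of the BEC sort (red) and LEC sort (blue), with widened 95% counting intervals, some of which run below the axis; open triangles stand for 0 counts. Ackr1 stands at 933 CPM in the venous gate, Ackr2 between 75.5 and 151 CPM in every LEC gate, and Ackr3 at 86.4 CPM in the Apln gate and 236 CPM in the Tppp3 gate.

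Ackr4 was scarce. It had 66 counts in 25 BEC-sort cells, 0.926 CPM (0.571 to 1.42), and 45 counts in 8 LEC-sort cells, 0.759 CPM (0.409 to 1.29). The ratio of LEC over BEC was 0.820 with an interval from 0.382 to 1.71, so a difference was not detectable at this depth, and neither a 2-fold excess of BEC nor equality lay outside the interval. In the LEC-gated cells 25 of 34 counts lay in 3 cells of the Cd74 gate, with 5, 9 and 11 counts, which gave that gate 7.41 CPM (3.08 to 14.9). The other 3 positive LEC-gated cells were in the Lsr gate (3 and 4 counts) and the Tppp3 gate (2 counts). In the BEC sort the 23 positive BEC-gated cells were scattered, 8 of them in the Apln gate, 4 in the arterial, 3 in the venous, 2 in the Npr3 and 1 in the Aplnr gate, and 2 LEC-gated cells held 11 of the 66 counts. Ackr4 lies inside Acad11, a gene on the opposite strand that overlaps all 42777 bases of it. Whether reads were counted by strand is not stated in the labels, and the part of Acad11 in the few Ackr4 counts was not tested.

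Pairs of receptors were counted in the same cell. In LEC-gated cells thinned to 5000 counts, 386 had both Ackr2 and Ackr3, where the product of the separate shares gives 353; Ackr2 was found in 30.4% of cells with Ackr3 (27.9 to 33.0%) and 26.5% of cells without (24.8 to 28.3%). Those 2 intervals overlap. For Gpr182, a receptor related to this family and reported to bind chemokines, the shares with Ackr2 did not overlap, 34.6% (31.4 to 37.9%) against 25.9% (24.3 to 27.5%). In BEC-gated cells Ackr1 was found in 27.1% of cells with Gpr182 (21.4 to 33.4%) and 9.04% of cells without (8.03 to 10.1%). Cxcr4, the classical receptor of Cxcl12, divided the BEC receptors, since Ackr1 was found in 4.05% of cells with Cxcr4 and 10.9% of cells without, and Ackr3 in 23.5% and 12.99%. Ackr1 was found in 8.26% of cells with Ackr3 (5.85 to 11.2%) and 10.7% of cells without (9.53 to 11.9%), which overlap, and 2 cells had both Ackr1 and Ackr2 where the product of the shares gives 8.68. The gates were not held fixed in these counts.

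Of 27 listed ligands 26 were in the matrix, with Cxcl11 not analysed here, and 10 reached 10 CPM in either sort. Of these 6 stood 2-fold or more toward LEC, 1 toward BEC and 3 within 2-fold, with a median log2 ratio of 1.30. Over all genes at that level 11.7% stood toward LEC, 8.76% toward BEC and the median was 0.10. Ccl7, Ccl8, Cxcl2 and Cxcl10 reached the minimum in LEC alone, and Cxcl9 and Cxcl12 in BEC alone. A minimum of that kind favours genes that differ, so the split is a description. Ccl8 is counted among the 6 and in the median. Ligands of Ackr2 and Ackr1 were led by the monocyte attractants Ccl2, at 22.5 CPM in BEC against 702 in LEC, and Ccl7, at 0.855 and 211 CPM. Ccl8 was at 0.309 and 84.1 CPM, but only 5.50 CPM in LEC-gated cells, below the minimum, since 1 cell held 94.3% of its LEC-sort counts. Within the LEC sort Ccl2 was at 4205 CPM in the Cd74 gate, the gate with the highest Ackr2 level, 1089 in the Npy gate and 327 to 611 CPM elsewhere. The neutrophil attractants Cxcl1 and Cxcl2, ligands of Ackr1, were at 51.9 and 7.22 CPM in BEC, against 36.8 and 13.2 CPM in LEC, and within the blood endothelium Cxcl1 was highest in the venous gate, at 98.0 CPM.

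The ligands of Ackr3 were split between the endothelia. Cxcl12 stood at 112 CPM in BEC against 8.67 in LEC, 12.9-fold apart, whereas adrenomedullin (Adm) was at 147 and 318 CPM, 2.17-fold higher in LEC (2.08 to 2.27). Within BEC, Cxcl12 was highest in the arterial gate (336 CPM) and at 67.2 CPM in the Apln gate, where Ackr3 was highest, while Adm was at 543 CPM in the Apln gate and 36.8 to 101 CPM in the others. In LEC, Adm was highest in the Npy gate (945 CPM) and at 59.6 CPM, its lowest, in the Tppp3 gate, where Ackr3 was highest. The Cxcr3 ligands Cxcl9 and Cxcl10 were at 11.6 and 6.58 CPM in BEC, against 8.59 and 20.3 CPM in LEC. Ccl21a, a ligand of Ackr4, had 86.2 CPM in BEC against 21397 CPM in LEC and served as a LEC marker; it has near-identical copies in the mouse genome, so its count is uncertain. Ccl19 and Ccl25, the other ligands of Ackr4, were at 0 and 8.01 CPM in BEC, against 0.0675 and 9.84 CPM in LEC.

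**Figure D5:**
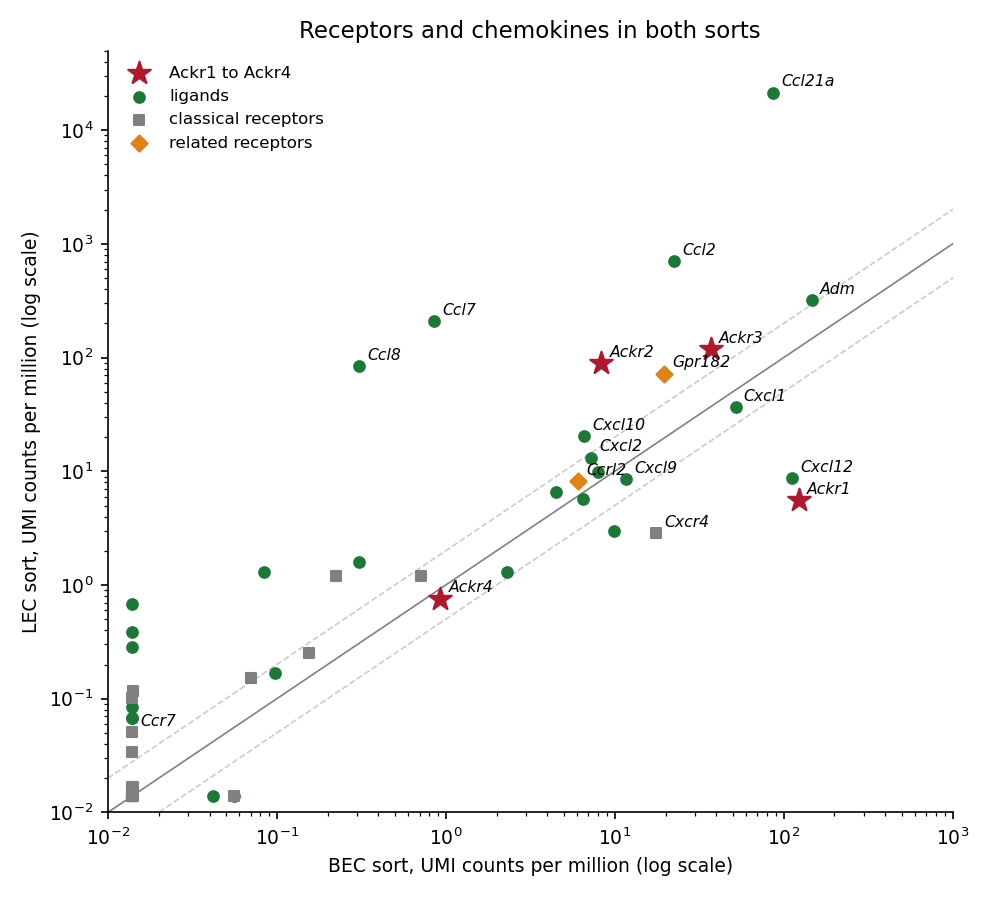
Level in the LEC sort against level in the BEC sort, both in CPM (log scales), for the 4 receptors (stars), their listed ligands, classical chemokine receptors and related receptors; the solid line marks equal levels, dashed lines 2-fold, and genes at 0 are drawn at the level of 1 BEC count, 0.0140. Ackr1 and Cxcl12 lie on the BEC side at 123 and 112 CPM, and Ackr2, Ackr3 and Gpr182 on the LEC side at 89.7, 119 and 72.5 CPM.

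Classical chemokine receptors were scarce. Of 18, 1 reached 10 CPM, Cxcr4 at 17.7 CPM in BEC against 2.85 in LEC, a 6.20-fold excess of BEC, and 5 were listed at 0 in both sorts. Over all 28692 genes 29% reached 10 CPM and 35.5% were at 0 in both sorts. Within BEC, Cxcr4 was at 36.3 CPM in the Apln gate, 29.6 in the Npr3 gate and 27.0 in the arterial gate, and at 7.22 CPM in the venous gate. Ccr7, the signalling receptor for Ccl19 and Ccl21, had 0 counts in BEC, against 0.0506 CPM in LEC. Of the 2 related receptors Gpr182 had 19.6 CPM in BEC against 72.5 in LEC, a 3.69-fold excess of LEC (3.31 to 4.13), and Ccrl2, which binds chemerin, was at 6.04 and 8.18 CPM. Within BEC Gpr182 was highest in the venous gate, at 56.6 CPM, as Ackr1 was, and within LEC in the Lsr and Tppp3 gates, at 109 and 104 CPM, the gates that led in Ackr3.

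Genes of the uptake machinery were read against all genes at 10 CPM or more, of which 20.4% were past 2-fold in either direction. Of 5 arrestins and receptor kinases at 10 CPM or more, 1 was past 2-fold, Arrb2 (beta-arrestin 2), at 6.38 CPM in BEC against 13.5 in LEC, 2.11-fold apart (1.71 to 2.62). Arrb1 was at 33.0 and 53.3 CPM, Grk5 at 28.8 and 39.7 CPM and Grk6 at 16.3 and 17.4 CPM. Of 10 genes of endosomal trafficking, all at 10 CPM or more, 1 was past 2-fold, Rab11a of the recycling endosome, at 570 CPM in BEC against 1209 in LEC (2.12-fold, 2.08 to 2.17). Rab5c of the early endosome was at 346 and 252 CPM and caveolin 1 (Cav1) at 563 and 519 CPM. Both counts are too small to be set apart from that share, and the median log2 ratios of the lists were 0.45 and 0.06.

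The genes with the pattern most like each receptor were taken by Pearson's r of log2 levels over the 12 gates of both sorts, among 9482 genes; the gates share libraries and lineage, so r is a description. For Ackr1 these were Csf2rb2 (0.975), a cytokine receptor chain, Fkbp11 (0.965), Plekha7 (0.953), Rpl6l (0.953) and Cadm3 (0.9502). For Ackr2 they were Frmd6 (0.987), Ost4 (0.984), the lymphatic growth factor receptor Flt4 (0.982), Tomm7 (0.980) and Ralgps2 (0.980). For Ackr3 they were Tanc2 (0.964), the growth factor receptor Fgfr1 (0.941), Rab11fip5 (0.936), Vsir (0.930) and BC026585 (0.930). Flt4 is one of the markers by which the LEC lineage was gated.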

How the data were processed

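Blood and lymphatic endothelial cells of MT-ret melanomas were measured by droplet 3′ single-cell RNA sequencing. The deposited matrix holds raw UMI counts per gene and cell; it was made with Cell Ranger 2.1.1 on build mm10, per the submitters' processing notes. The authors' rule for keeping cells is not stated in the labels. All cells were kept, and doublets were not called. Columns name the sort but no library, so each sort was 1 sample and no p-value is given. Counts were summed over cells, scaled to CPM and given exact Poisson, conditional binomial or Clopper-Pearson intervals at 95%. Log2 ratios between the sorts and the places of genes used a pseudocount of 1 CPM. Log2 ratios of gates, folds and the intervals of ratios used none. Genes were counted as apart at 2-fold, without a pseudocount, and at 10 CPM or more. Because per-cell counts of scarce genes stepped down after 4, counts were divided by the mean square over the mean of those genes before an interval of a level or ratio was made, a choice made after seeing the data. At these depths 1 count was worth 0.0140 CPM (BEC) or 0.0169 CPM (LEC).

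A lineage gate needed 3 own markers in a cell thinned to 5000 counts, a larger share than the opposite list, and fewer than 3 markers of any non-endothelial list. A subset gate needed the highest mean marker score, rescaled to unit SD, at 0.5 or more; cells within 0.25 of a cut were counted as near. Clusters for comparison used 2000 variable genes without the 4 receptors, 30 principal components, 15 neighbours and Leiden resolution 0.6 (scikit-learn 1.9.0 and python-igraph 0.11.9 through scanpy 1.11.5, with scipy 1.17.1 in Python 3.11.15). The ratio, interval and gate steps were tested on simulated data. The receptors, gene lists and gate markers were chosen with earlier results of these data known. Genes named beside the receptors were their ligands at 10 CPM or more, Ccrl2, Gpr182, Cxcr4, Ccr7, the 3 highest of the arrestin and trafficking lists, and the 5 genes most like each receptor; other genes were named after their values were seen. Promoter windows are from RefSeq on GRCm38.p6 and matched all 4 receptors. Alternatives were lineage-gated cells, size factors, another pseudocount, equal weight per cell, thinning, other scores, clusters and markers.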

Additional observations from a re-analysis of the deposited data

How the results depend on the processing

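Of the main values 33 were labelled as close to the reported one and 19 as moved. For log2 ratios between the sorts this tally is only rough. Those ratios carry a pseudocount of 1 CPM, and the intervals they were set against do not. The log2 ratios of Ackr1, Ackr2 and Ackr3 kept their sign under each alternative run; that of Ackr4, not distinguishable from 0, went from -0.13 to 0.07 when each cell was weighted equally. The log2 ratio of LEC over BEC for Ackr1 moved from -4.23 to -6.54 in lineage-gated cells and to -4.80 without the highest cell of each sort. That of Ackr2 went from 3.28 to 3.57 in lineage-gated cells, which was labelled as close. It was 3.11 with median-of-ratios size factors, labelled as moved. With each cell's count divided by 4 and rounded up, a choice made after seeing the data, that of Ackr2 was also 3.11. That of Ackr3 moved from 1.66 to 1.86 in lineage-gated cells, 1.48 with size factors and 1.33 with divided counts. For the leading gates, Ackr1 (4.94) gave 4.76 with every cell assigned, 6.42 by clusters and 4.27 at lowest when 1 marker was left out. Values by clusters are those of the cluster leading in the receptor, which was not matched to a gate. Ackr2 (0.53) gave 1.08 by clusters and 0.34 to 0.84 by left-out marker, and without Cd74 the leading gate was Npy. Ackr3 gave 1.43 in BEC with every cell assigned (main value 1.66), and in LEC 0.83 by clusters and 0.73 to 0.83 by left-out marker (main value 0.98). Genes at least 2-fold apart numbered 1696 at 10 CPM, 7801 with no minimum and 703 at 50 CPM. Size factors shifted log2 ratios by -0.18 before the pseudocount (Ackr4 from -0.13 to -0.21) and turned the split from 968 higher in LEC and 728 in BEC to 801 and 922. Apart from the divided counts and the left-out cells or markers, the causes were not tested. Of the shares of cells, 14 moved and 18 did not. No paired analysis was possible because the columns carry no library number, and leaving out libraries in turn was not run for the same reason.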
